A study of Mus musculus with 8 samples.

Results

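The genes described here encode the molecular chaperones named by their heat shock, DnaJ and chaperonin symbols. They were chosen by name: each probe set whose single annotated gene symbol starts with Hsp (Hspg excluded) or Dnaj, or is Cct followed by a digit. This gave 77 of the 12488 probe sets on the array, for 55 of its 8252 named genes. A further 2 probe sets carry both Dnajc19 and its pseudogene as symbols and were left out.

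Neurosphere cells are neural stem and progenitor cells grown as floating clusters. They came from forebrains of mouse embryos at embryonic day 14.5, isolated one by one, and all groups carried a bcl2 transgene, whose promoter is not given in the sources used here. The 4 groups were TSA (150 nM trichostatin A, which blocks histone deacetylases), AzaC/TSA (both compounds), AzaC (500 nM 5-aza-2'-deoxycytidine, which traps DNA methyltransferases) and untreated, each over 2 days. Every group had 2 arrays, 1 from each of 2 independent experiments, and the labels do not say which embryos a culture came from.

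Chaperones of the Hsp70 family bind exposed stretches of unfolded proteins in a cycle of ATP hydrolysis. J proteins (Dnaj) bring them their clients and start the hydrolysis, and Hsp110 proteins release the nucleotide so that the cycle can begin again. Hsp90 completes the folding of kinases and receptors, while the chaperonin rings (CCT in the cytosol, Hsp60 with its lid Hsp10 in mitochondria) enclose a protein as it folds. Small heat shock proteins hold aggregating proteins without ATP. Heat shock factors switch on the inducible members through repeated GAA units in the promoter, and the endoplasmic reticulum has its own stress element for its chaperones.

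The upstream sequences of members that carry such elements are shown so that the genes' values can be read beside them. RefSeq (GRCm38.p6) gave upstream sequence for 47 of the 55 genes, and the 250 bases before each start were searched on both strands. The first set shows the inducible Hsp70 pair, 200 bases before the start, with the head-to-head pair of heat shock units (GAANNTTC) in capitals. The sequences are Hspa1a at chr17:34972157-34972356 and Hspa1b at chr17:34959239-34959438, both on the minus strand.
Hspa1a: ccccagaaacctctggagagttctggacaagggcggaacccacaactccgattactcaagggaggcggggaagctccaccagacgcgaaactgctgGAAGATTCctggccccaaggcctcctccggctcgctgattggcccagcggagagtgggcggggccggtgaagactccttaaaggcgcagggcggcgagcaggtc
Hspa1b: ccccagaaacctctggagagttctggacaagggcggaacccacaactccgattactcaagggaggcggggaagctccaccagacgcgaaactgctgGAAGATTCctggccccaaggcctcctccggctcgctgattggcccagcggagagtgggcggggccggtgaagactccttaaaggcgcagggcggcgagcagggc
The marked bases start at position -104 in both genes, counted from -1 just before the start. An alignment of the 250 upstream bases of this pair had 247 identical columns (98.8%).

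The second set shows the elements with 3 heat shock units (GAA, TTC and GAA in this order, each 2 bases from the next, or the reverse complement) and the endoplasmic reticulum stress element (CCAAT and CCACG with 9 bases between them, or the reverse complement), again in capitals. In Hspe1 the capitals cover 2 overlapping matches, and the same stretch read from the other strand lies upstream of one of the starts RefSeq lists for Hspd1, while the longer form of that gene spans it. The windows are chr5:29735844-29735872 (plus strand) for Dnajb6, chr1:55088053-55088082 (plus) for Hspe1, chr2:34772020-34772048 (plus) for Hspa5, chr10:86705633-86705661 (minus) for Hsp90b1 and chr14:118937822-118937850 (plus) for Dnajc3.
Dnajb6: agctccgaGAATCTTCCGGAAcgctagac
Hspe1: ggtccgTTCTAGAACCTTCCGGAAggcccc
Hspa5: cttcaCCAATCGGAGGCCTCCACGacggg
Hsp90b1: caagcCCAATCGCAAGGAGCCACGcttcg
Dnajc3: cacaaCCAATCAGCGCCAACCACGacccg
The element of 3 units was found in 3 of the 47 member genes (Dnajb6, Hspd1 and Hspe1), against 0.466% of all 32851 upstream sequences. The endoplasmic reticulum element was found in 3 of 47 (Dnajc3, Hsp90b1 and Hspa5), against 0.113%. The shorter pair GAANNTTC, which reads the same on both strands and is contained in the element of 3 units, was found in 8 of 47 against 6.69%, and TTCNNGAA, likewise contained in it, in 7 of 47 against 7.17%. The member counts are of genes, each counted if any of its listed starts matched, while the percentages are of single upstream sequences. These units differ, and Hspd1 and Hspe1 share a site, so the shares cannot be compared directly. A match describes these letters and is not evidence of binding.

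Each array had the same 2%-trimmed mean signal, 200.1, and its median signal lay between 59.2 and 72.7. The ratio of 5' to 3' signal of the actin controls, a sign of RNA integrity, ran from 0.29 to 0.39 on the TSA-exposed arrays and from 0.332 to 0.471 on the others. Progenitor markers were present: the 9 genes fixed for them summed to signals of 6384 to 14019 on the 4 TSA-exposed arrays and of 15165 to 17780 on the other 4. Of 7 tested, Fabp7 fell (-1.89, limma adjusted p = 0.00459), with signals of 1063 to 5499 with TSA against 7830 to 10920 without. The other 6 did not pass, with changes of -1.08 (Pax6) to 0.25 (Hes1). Over all tested probe sets 6.95% rose and 7.56% fell with TSA exposure. Of 6 neuronal markers, all tested, 3 rose (Snap25 by 4.03, Syp by 1.71 and Mapt by 0.98) and 1 fell (Tubb3, -0.82). Map2 (-0.59) and Dcx (0.78) did not pass. The summed signals of the 6 overlapped, at 2291 to 3109 with TSA against 2321 to 3209 without. Without TSA, Snap25 (4.3 to 31.8) and Syp (6.7 to 50.1) lay mostly under the signal needed for a test. Both were tested through their TSA-exposed arrays, which limits how well these sizes are known. Of 5 microglia and macrophage markers Cd68 rose (2.84), Csf1r did not pass (-0.90) and 3 did not reach the signal needed for a test. Their summed signals were 184.6 to 543.3 with TSA against 96.5 to 178.1 without. Among markers of astrocytes S100b fell and Gfap (0.26) did not pass. Their sums were 126.2 to 168.2 with TSA against 216.4 to 283.3 without. Among those of fibroblasts Dcn rose, while Col1a1 (0.28) and Col1a2 (-0.32) did not pass. These sums overlapped (410.3 to 555 against 439.6 to 588.8). Dcn (7 to 34.7) and Cd68 (30 to 53) also lay mostly under the signal needed for a test without TSA. No tested marker of oligodendrocytes, endothelium or erythroid cells passed. Cell division genes fell in 14 of 14, with summed signals of 972 to 1791 with TSA against 9753 to 14569 without. Mki67, Top2a, Aurka, Aurkb, Birc5 and Kif11 lay under the signal needed for a test on every TSA-exposed array. They were tested through the arrays without TSA, which limits how well the sizes of their falls are known. In RNA from whole cultures fewer cells of a type and less RNA per cell cannot be told apart, and the part of these shifts in the chaperone values was not tested.

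Of the 77 chaperone probe sets, 66 (51 genes) were bright enough to be tested, which required a signal of 25% of the trimmed mean (50) on at least 2 of 8 arrays. The other 11 stayed low, with signals between 0.6 and 83.6. Among these was the small heat shock protein Hspb1, whose signals were 7 and 6.5 with TSA, 4 and 6.6 with AzaC/TSA, 15.5 and 22.6 with AzaC, and 12.2 and 30.7 untreated. The TSA-exposed arrays were the lower ones, but most of these values lie near or below the floor of 20 under which signals were not ordered, and Hspb1 was not tested. The testis J protein genes Dnajb3 (both probe sets) and Dnajb8 and the testis chaperonin subunit Cct6b also had no tested probe set. Among tested members the signals ran from 10 to 9074, and 5 had an array under the floor.

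With TSA, single chaperone genes changed in both directions. Over the mean of both TSA comparisons (TSA over untreated and AzaC/TSA over AzaC, 4 arrays against 4), the cytosolic heat-inducible Hsp70 genes Hspa1b and Hspa1a, a J protein (Dnajb6) and 1 of 5 probe sets of the Hsp110 gene Hspa4 rose. The mitochondrial Hsp70 Hspa9, the chaperonin subunits Cct3 (2 of 3 probe sets) and Cct6a, and the J protein Dnajc9 fell. These are 4 rises and 5 falls among 66 tested members (6.06% and 7.58%) by limma at an adjusted p under 0.05, against 6.95% and 7.56% of all 7987 tested probe sets, so the shares lay near the background. The median log2 change of the tested members was 0.07, against -0.03 over all tested probe sets, and 35 of the 66 lay above 0. With the experiment as a block 7 rose and 7 fell, against 11.7% and 12.2% of all.

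**Figure D1:**
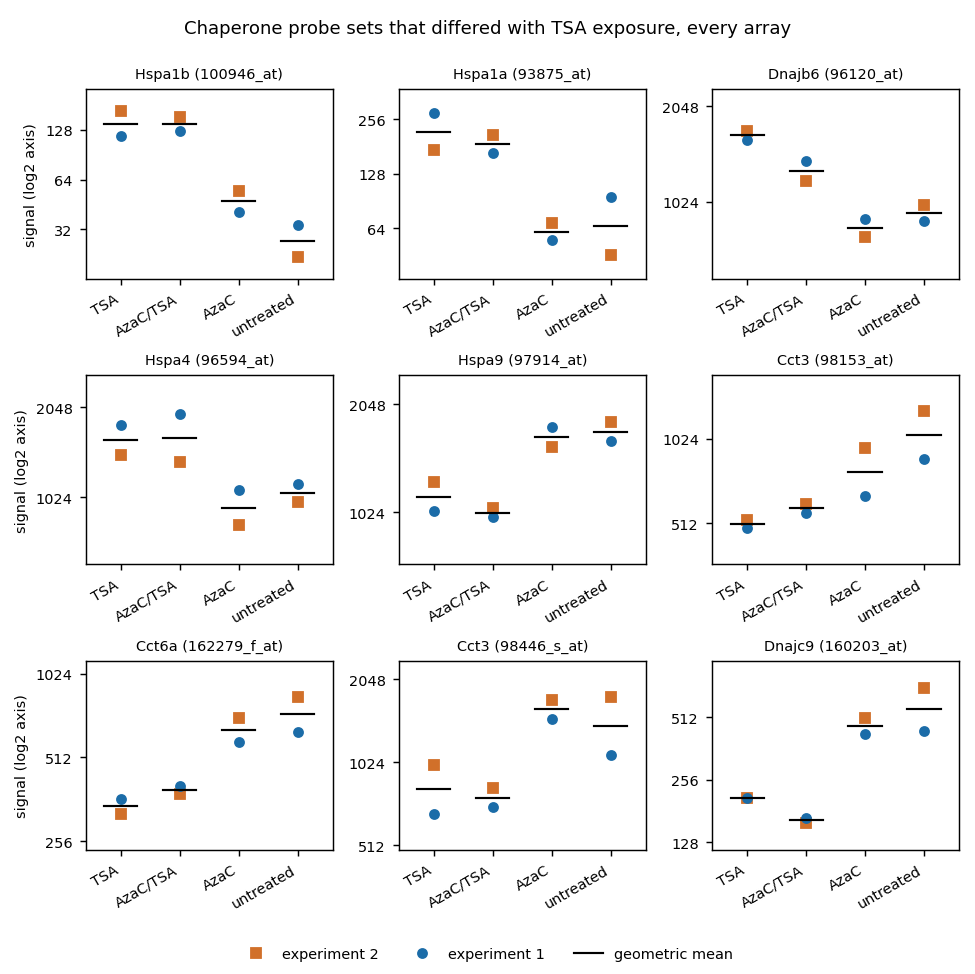
Signal of the 9 chaperone probe sets that passed in the mean TSA comparison, on a log2 axis for each group, with squares for experiment 2, circles for experiment 1 and a bar at the geometric mean of the 2 arrays. In the panels of Hspa1b, Hspa1a, Dnajb6 and Hspa4 the 4 TSA-exposed arrays lie above the other 4, and in the 5 other panels they lie below.

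The inducible Hsp70 genes Hspa1a and Hspa1b encode the cytosolic Hsp70 that cells make in large amounts after heat or other protein damage. Hspa1b had signals of 116.5 and 166.6 with TSA (experiments 1 and 2), 125.9 and 153.4 with AzaC/TSA, 40.7 and 54.9 with AzaC, and 33.9 and 21.8 untreated. All 4 TSA-exposed arrays lay above all others, and the untreated arrays were the lowest. Without TSA only the second AzaC array reached the signal of 50 used for the filter. The probe set was thus tested through its TSA-exposed arrays, and the lack of overlap is no separate support. The untreated signals lay near the floor of 20, which limits how well the folds are known. Hspa1b rose 3.88-fold over the mean of both TSA comparisons (log2 change 1.96, SE 0.31, limma adjusted p = 0.00447), and passed in all 16 alternatives run for that comparison.

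Hspa1b also passed in TSA over untreated (5.12-fold higher, adjusted p = 0.0211) and in AzaC/TSA over untreated (5.11-fold higher, adjusted p = 0.025). These comparisons share the untreated arrays. In AzaC/TSA over AzaC, which shares no array with TSA over untreated, it was 2.94-fold higher and did not pass (adjusted p = 0.103). The call in TSA over untreated was lost without either TSA or either untreated array, and that in AzaC/TSA over untreated without either AzaC/TSA or either untreated array. Both were also lost without the filter and with only the groups compared in the fit. Over all alternatives the log2 changes stayed between 1.80 and 2.68 and between 1.80 and 2.67.

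Hspa1a had signals of 277.3 and 172.1 with TSA, 165.8 and 208.1 with AzaC/TSA, 55.3 and 68.3 with AzaC, and 95.4 and 45.8 untreated. Again the groups with and without TSA did not overlap. It rose 3.16-fold (log2 change 1.66, SE 0.32, limma adjusted p = 0.0104), and of 16 alternatives only the one without a filter on low signals lost the call (adjusted p = 0.0595). It did not pass in either TSA comparison alone (adjusted p = 0.0639 and 0.104), but did in both with the experiment as a block (0.027 and 0.0452). The 2 genes are near-identical copies, so their probe sets may each read both transcripts.

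No other Hsp70 gene rose by this test, and whether the changes differ between the genes was not tested. The constitutive Hsp70 gene Hspa8 had signals of 3731 and 4012 with TSA, 4242 and 4487 with AzaC/TSA, 4134 and 5165 with AzaC, and 4404 and 4935 untreated. The groups overlapped, and the log2 change was -0.18 (95% interval -0.53 to 0.18, limma adjusted p = 0.502). Hspa5 (BiP), the Hsp70 of the endoplasmic reticulum, had 2275 and 2610 with TSA, 2552 and 5746 with AzaC/TSA, 2255 and 3266 with AzaC, and 2557 and 3095 untreated. A single array, AzaC/TSA of experiment 2, stood above the rest, and the change was 0.14 (-0.45 to 0.74, adjusted p = 0.765).

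Hspa9 (mortalin), which pulls proteins into mitochondria, went the other way. Its signals were 1034 and 1243 with TSA, 991.8 and 1053 with AzaC/TSA, 1771 and 1556 with AzaC, and 1613 and 1830 untreated. All 4 TSA-exposed arrays were the lower ones, and Hspa9 fell 1.57-fold (log2 change -0.65, SE 0.16, limma adjusted p = 0.0285). The call was lost without any single array and without the intensity trend, with an adjusted p up to 0.1, while the change stayed between -0.72 and -0.58.

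Hspa2, known for its role in male germ cells, had signals of 147.3 and 73.9 with TSA, 72.7 and 105.3 with AzaC/TSA, 53.7 and 75.8 with AzaC, and 35.6 and 34.4 untreated. Only the second AzaC array reached into the range of the TSA-exposed ones. It lay 2.02-fold higher but did not pass (limma adjusted p = 0.0784), and neither did Hspa14 (0.04) or Hspa1l (-0.19, with an array under the floor).

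Hspa4 and Hsph1 are Hsp110 proteins, which exchange the nucleotide of Hsp70. The 5 probe sets of Hspa4 disagreed. The one that rose (96594_at) had signals of 1791 and 1416 with TSA, 1944 and 1337 with AzaC/TSA, 1081 and 822.8 with AzaC, and 1131 and 986.1 untreated, and its groups did not overlap (1.61-fold higher, log2 change 0.68, SE 0.20, limma adjusted p = 0.0487). Its call was lost without any array except the second of AzaC/TSA, and in 4 other alternatives (adjusted p up to 0.151). The other 4 probe sets gave log2 changes of -0.28 to 0.24 and did not pass, so no direction is given for the gene.

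Hsph1 is induced by heat together with Hspa1a in many cells. Here its signals were 421.8 and 361.9 with TSA, 556.6 and 475 with AzaC/TSA, 508.2 and 830.9 with AzaC, and 678.8 and 663.6 untreated. The log2 change was -0.56 (95% interval -1.02 to -0.09, limma adjusted p = 0.105), which did not pass and lay on the opposite side of 0 from that of Hspa1a. Hspa4l, a relative of Hspa4, was at 0.44 and did not pass.

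For Hsp90, the inducible cytosolic gene Hsp90aa1 had signals of 2430 and 9074 with TSA, 2302 and 6120 with AzaC/TSA, 2137 and 3564 with AzaC, and 2556 and 3124 untreated. The high values were the TSA-exposed arrays of experiment 2, while those of experiment 1 lay within the range of the others. The log2 change was 0.59 with a wide interval (-0.41 to 1.59, limma adjusted p = 0.42). Hsp90b1, the Hsp90 of the endoplasmic reticulum, had 2165 and 1642 with TSA, 2684 and 2630 with AzaC/TSA, 3365 and 2902 with AzaC, and 2986 and 2510 untreated. The TSA arrays were the lowest pair, the AzaC/TSA arrays lay among the untreated ones, and the change was -0.39 (-0.77 to -0.01, adjusted p = 0.161).

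The mitochondrial chaperonin genes Hspd1 (Hsp60) and Hspe1 (Hsp10) are divergent neighbours, with the element of 3 heat shock units printed above before a start of each. Hspe1 had signals of 1351 and 1979 with TSA, 1511 and 2538 with AzaC/TSA, 1608 and 2730 with AzaC, and 1730 and 2810 untreated. In each group experiment 2 was the higher, and the TSA change was -0.26 (95% interval -0.88 to 0.36, limma adjusted p = 0.569). The main Hspd1 probe set (93277_at) had 2181 and 2029 with TSA, 1809 and 2703 with AzaC/TSA, 1777 and 2974 with AzaC, and 1777 and 3325 untreated, with a change of -0.13 (-0.73 to 0.46). A dim one (161140_r_at) had 142.3 and 64.6 with TSA, 57.2 and 85.6 with AzaC/TSA, 17 and 88.2 with AzaC, and 38.9 and 23.2 untreated, with a change of 1.21. Neither passed, the groups overlapped in both, and the second had an AzaC array under the floor.

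The CCT ring, also called TRiC, folds actin and tubulin. Of 10 tested probe sets for 7 subunits, 3 fell with TSA, 0 rose and the median log2 change was -0.37. Over all tested probe sets 6.95% rose and 7.56% fell. With the experiment as a block 4 fell (12.2% of all), with the addition of a Cct5 probe set (161514_at, -0.80, adjusted p = 0.0408). That probe set had signals of 117.5 and 97.3 with TSA, 119.3 and 239.2 with AzaC/TSA, 196.4 and 309.2 with AzaC, and 172.6 and 289.5 untreated. The second AzaC/TSA array lay among the unexposed ones, and the other Cct5 probe set was at -0.40 and did not pass. Cct2 (0.30), Cct4 (0.35), Cct7 (0.12) and Cct8 (-0.05) did not pass in either fit. Neither did Tcp1 (-0.19), a further subunit of the ring whose symbol the name rule does not cover. Cct2 had 341.4 and 463.1 with TSA, 364.4 and 514.9 with AzaC/TSA, 374.6 and 377.5 with AzaC, and 322.5 and 280.8 untreated. Cct8 had 636 and 894.8 with TSA, 637.8 and 728.6 with AzaC/TSA, 622.1 and 932.2 with AzaC, and 570 and 928.2 untreated. In both subunits the groups overlapped.

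Cct6a had signals of 362.7 and 321.3 with TSA, 402.8 and 378.3 with AzaC/TSA, 579.7 and 712.2 with AzaC, and 631.9 and 843.8 untreated. The groups with and without TSA did not overlap, and it fell 1.88-fold (log2 change -0.91, SE 0.19, limma adjusted p = 0.0132). The call was lost without the second TSA or the second untreated array (adjusted p up to 0.0575). A dim second probe set of Cct6a, with signals of 7.6 to 18.4, was not tested.

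The brightest Cct3 probe set (98446_s_at) had signals of 663.6 and 1004 with TSA, 703.7 and 825.6 with AzaC/TSA, 1470 and 1727 with AzaC, and 1092 and 1771 untreated, and it fell 1.89-fold (log2 change -0.92, SE 0.22, limma adjusted p = 0.0262). A second (98153_at) had 492.7 and 527 with TSA, 558.7 and 597.4 with AzaC/TSA, 638.2 and 946.1 with AzaC, and 864.1 and 1282 untreated. In both probe sets the groups with and without TSA did not overlap. The second fell 1.67-fold (-0.74, SE 0.21, adjusted p = 0.0446), and the remaining probe set was at -0.34 and did not pass (adjusted p = 0.405). The 3 probe sets lay on the same side of 0. The first call was lost in 8 of 16 alternatives, among them those without TSA 1, either AzaC/TSA array, either AzaC array or untreated 2 (adjusted p up to 0.0942), and the second in 9, among them those without either TSA array, either AzaC/TSA array, AzaC 2 or untreated 2 (up to 0.147).

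**Figure D2:**
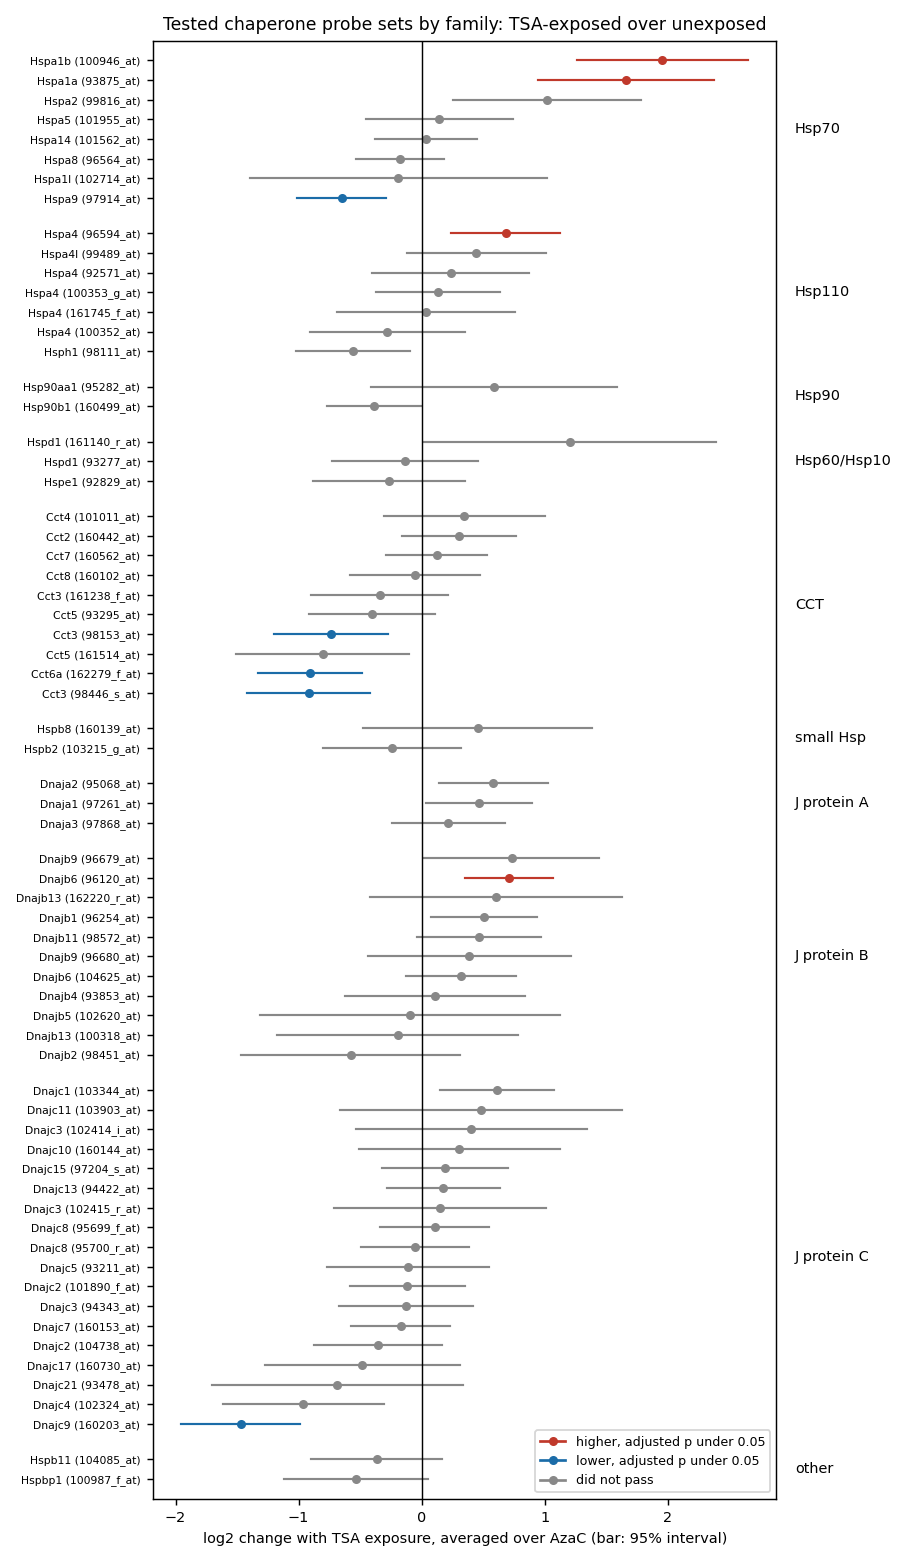
Log2 change with TSA exposure, averaged over AzaC, for the 66 tested chaperone probe sets in families, with 95% intervals from limma as bars. Red marks the 4 that rose and blue the 5 that fell, and most grey intervals cross 0.

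J proteins of class A are the closest relatives of bacterial DnaJ. None of the 3 passed (0.47 for Dnaja1, 0.58 for Dnaja2 and 0.22 for the mitochondrial Dnaja3). With the experiment as a block Dnaja1 and Dnaja2 rose, both just under the threshold (limma adjusted p = 0.0481 and 0.0461), where 11.7% of all tested probe sets rose. Dnaja1 had signals of 1136 and 1111 with TSA, 1122 and 895.2 with AzaC/TSA, 803.9 and 534.2 with AzaC, and 943.4 and 852.6 untreated, and the second AzaC/TSA array lay within the range of the untreated ones. Dnaja2 had signals of 325.5 and 349.7 with TSA, 390.5 and 373.7 with AzaC/TSA, 267.9 and 199.7 with AzaC, and 228.6 and 270.3 untreated. Its groups with and without TSA did not overlap.

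Among 11 tested class B probe sets, 1 rose (against 6.95% of all tested probe sets), 0 fell and the median log2 change was 0.39. Dnajb6, which keeps polyglutamine and other aggregating proteins soluble, had signals of 1603 and 1716 with TSA, 1379 and 1195 with AzaC/TSA, 902.1 and 793.4 with AzaC, and 894.5 and 997.4 untreated. All TSA-exposed arrays lay above the others, those with TSA alone being the highest, and it rose 1.63-fold (log2 change 0.71, SE 0.16, limma adjusted p = 0.0196). The call was lost without either TSA array, AzaC/TSA 1, AzaC 2, either untreated array or the intensity trend (adjusted p up to 0.0704). Its dimmer probe set was at 0.32 and did not pass.

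Dnajb1 (Hsp40), the heat-inducible partner of Hspa1a, had signals of 374.6 and 408.2 with TSA, 316 and 418.9 with AzaC/TSA, 236.1 and 246.2 with AzaC, and 269.4 and 316.5 untreated. The lowest value with TSA equalled the highest without it to within 1 unit, and the change of 0.51 (95% interval 0.07 to 0.94) did not pass (limma adjusted p = 0.113, or 0.055 with the block). Dnajb9 is a J protein of the endoplasmic reticulum. Its probe set (96679_at) had signals of 98.7 and 80.3 with TSA, 55.6 and 56.7 with AzaC/TSA, 38.9 and 25.7 with AzaC, and 65.1 and 50.4 untreated. The TSA arrays were the highest, the AzaC/TSA arrays lay among the untreated ones, and the change of 0.73 did not pass (adjusted p = 0.158). The other Dnajb9 probe set (0.39), Dnajb11, also of the endoplasmic reticulum (0.47), Dnajb2 (-0.58), Dnajb4 (0.11), Dnajb5 (-0.09) and the 2 probe sets of Dnajb13 (-0.19 and 0.60) did not pass.

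Of 18 tested class C probe sets, 1 fell (against 7.56% of all) and 0 rose (median -0.08). Dnajc9, which in human cells is known to bind histones and to hand them over with the help of Hsp70, had signals of 208.5 and 208.2 with TSA, 167.8 and 158.6 with AzaC/TSA, 427.4 and 507.3 with AzaC, and 441.2 and 710.9 untreated. Every array with TSA was below every array without it, by a wide gap. It fell 2.77-fold (log2 change -1.47, SE 0.21, limma adjusted p = 0.00324), and passed in all 16 alternatives.

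Dnajc9 was also the chaperone gene that passed in each separate comparison with TSA. It was 2.69-fold lower in TSA over untreated (adjusted p = 0.0332), 2.85-fold lower in AzaC/TSA over AzaC (0.037) and 3.43-fold lower in AzaC/TSA over untreated (0.0181), where the first and last share the untreated arrays. Each of these calls was lost without any array of the 2 groups compared, except the last without untreated 1, and that in AzaC/TSA over AzaC also without either TSA array. Each was also lost without the filter and with only the groups compared in the fit. The calls in TSA over untreated and AzaC/TSA over AzaC were lost without the intensity trend too, and the latter with median centring. The log2 changes stayed between -1.77 and -1.08, -1.64 and -1.39, and -2.12 and -1.44. Cell division genes fell alongside over the mean of both TSA comparisons (14 of 14, against 7.56% of all tested probe sets). Among them was Pcna (-1.95, limma adjusted p = 0.00652), the replication clamp, and the part of these genes in the fall of Dnajc9 was not tested. Several of the cell division genes, though not Pcna, were tested through the arrays without TSA, as given above.

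Dnajc4 had signals of 110.3 and 67 with TSA, 70.4 and 47.1 with AzaC/TSA, 146.7 and 146.1 with AzaC, and 147.9 and 111.1 untreated. Its groups did not overlap, by a narrow margin, and the change of -0.96 passed with the block (adjusted p = 0.021) and not without it (0.0565). Dnajc1, a membrane J protein of the endoplasmic reticulum, did likewise in the other direction (0.61, adjusted p = 0.0438 with the block and 0.0812 without). Hspbp1, a cochaperone that releases nucleotide from Hsp70 (-0.53), and Hspb11, an intraflagellar transport protein that carries a heat shock name (-0.37), did not pass, nor did the 2 tested small heat shock proteins Hspb8 (0.46) and Hspb2 (-0.24). Hspb8, a partner of Bag3 in clearing aggregates, had signals of 261.5 and 80.4 with TSA, 255.5 and 142.8 with AzaC/TSA, 135.5 and 92.8 with AzaC, and 171.2 and 100.6 untreated, and was lower in experiment 2 in each group. The remaining class C genes, Dnajc2, Dnajc3, Dnajc5, Dnajc7, Dnajc8, Dnajc10, Dnajc11, Dnajc13, Dnajc15, Dnajc17 and Dnajc21, gave changes of -0.69 (Dnajc21) to 0.48 (Dnajc11) and did not pass.

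Counted without a test, 6 tested members had all 4 TSA-exposed arrays above the other 4, and 6 had them below (9.09% each), against 11% and 12.6% of all tested probe sets. They were the 9 that passed, Dnaja2 and Dnajc1 above, and Dnajc4 below.

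The TSA comparisons with and without AzaC share no array, so their values can be set side by side. The log2 changes had the same sign in 49 of 66 tested members (74.2%), against 74.8% of all tested probe sets. TSA over untreated gave 1 rise (Hspa1b) and 2 falls (Dnajc9 and Cct6a), against 2.09% and 2.93% of all tested probe sets, and with the block 3 and 4 against 5.6% and 6.56%. Without either TSA or either untreated array 0 of these calls stood, and without any other array 2 did. AzaC/TSA over AzaC gave 0 rises and 1 fall (Dnajc9), against 1.11% and 1.68%, and with the block 2 and 3 against 4.49% and 4.82%. AzaC/TSA over untreated gave 1 rise (Hspa1b) and 1 fall (Dnajc9), against 1.29% and 1.83%, and with the block 1 and 5 against 4.38% and 4.96%. For that comparison 0 members passed without either AzaC/TSA array or untreated 2, and 1 without untreated 1.

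**Figure D3:**
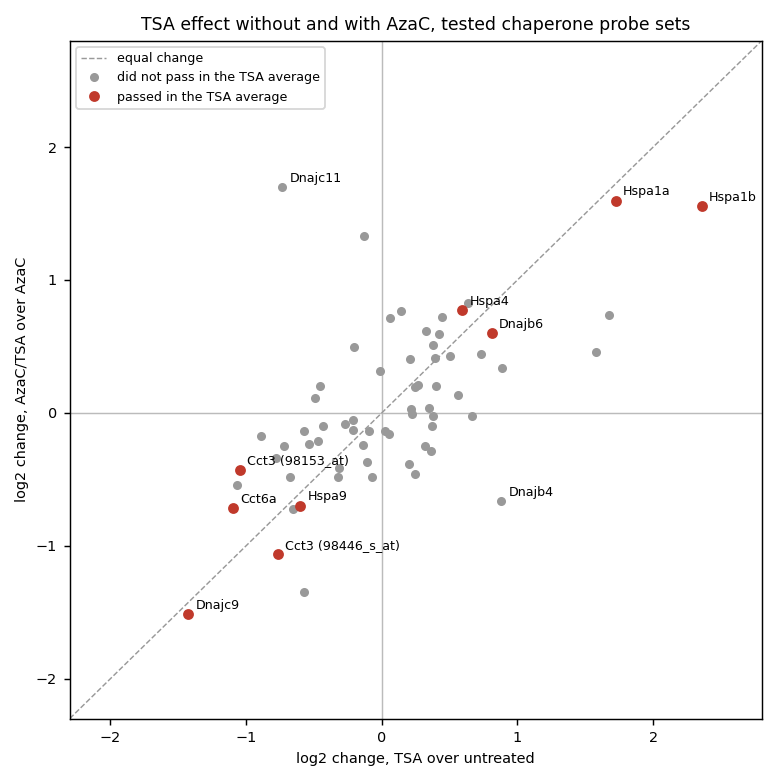
Log2 change in TSA over untreated (x axis) against AzaC/TSA over AzaC (y axis) for the 66 tested chaperone probe sets, with the 9 that passed in the mean of both in red and equal change as a dashed line. Hspa1b and Hspa1a lie at the upper right and Dnajc9 at the lower left, while Dnajc11 and Dnajb4 lie in opposite quadrants.

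No chaperone gene passed in a comparison of AzaC. limma called 0 of 66 members in AzaC over untreated, 0 in AzaC/TSA over TSA and 0 for the AzaC by TSA interaction, against 0% of all tested probe sets each, also with the block. At an unadjusted p under 0.05 these were 1, 0 and 2 members, against 175, 185 and 142 of all 7987 probe sets. The median log2 changes of the members were -0.05 with AzaC alone and -0.03 with AzaC on top of TSA. The median 95% half-width of a change between 2 groups was 0.93, before any adjustment, and it varied between probe sets.

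Dnajc11, a mitochondrial J protein, was the member with an unadjusted p under 0.05 for AzaC, and was singled out after its values were seen. It had signals of 151.4 and 29.8 with TSA, 120.6 and 78.5 with AzaC/TSA, 34.9 and 25.8 with AzaC, and 85.5 and 145.6 untreated. The AzaC arrays were the lowest apart from TSA 2, and the change with AzaC of -1.89 did not pass (SE 0.72, limma adjusted p = 1). Its interaction of 2.43 did not pass either (SE 1.01, adjusted p = 1), nor did that of Dnajb4 (-1.55, SE 0.65, adjusted p = 1).

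The 2 experiments differed in several chaperone genes. With the 4 groups as a term in the fit, 5 members were higher in experiment 2 and 1 was lower (7.58% and 1.52%), against 1.58% and 2.64% of all tested probe sets. Each call in this comparison was lost without some array: 0 stood without any TSA, AzaC/TSA or AzaC array, 3 without untreated 1 and 2 without untreated 2. Those higher were Hsp90aa1 (2.12-fold, log2 change 1.08, SE 0.23, limma adjusted p = 0.0335), the endoplasmic reticulum J protein Dnajc10 (1.85-fold, adjusted p = 0.0338), Cct4 (1.64-fold, 0.0273), Hspe1 (1.61-fold, 0.0184) and 1 Hspa4 probe set (92571_at, 1.60-fold, 0.0433), which was not the one that rose with TSA. The one lower was a Dnajc3 probe set (102414_i_at, 2.06-fold lower, 0.0302), for a J protein that curbs the stress kinase of the endoplasmic reticulum. No other tested Dnajc3 probe set passed. The gap of Hsp90aa1 was widest on the TSA-exposed arrays (9074 against 2430 with TSA, 6120 against 2302 with AzaC/TSA) and narrowest untreated (3124 against 2556). The Hspa4 probe set that rose with TSA (96594_at) lay at -0.37 and the others at 0.34, 0.44 and 0.71. None of them passed, so no direction is given for that gene.

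Dnajc10 had signals of 711.5 and 551.3 with TSA (experiments 2 and 1), 1222 and 493.9 with AzaC/TSA, 896.7 and 384.1 with AzaC, and 676.8 and 433.1 untreated. Cct4, in the same order, had 2091 and 1631 with TSA, 2110 and 1274 with AzaC/TSA, 2090 and 1068 with AzaC, and 1657 and 944.8 untreated. Dnajc3 had, again in that order, 280.1 and 397.7 with TSA, 213 and 471.5 with AzaC/TSA, 133.5 and 422.8 with AzaC, and 189.3 and 341.1 untreated. In all 3 the experiments differed the same way within each of the 4 groups. Of the 10 CCT probe sets (7 subunits) 1 passed and all 10 had a positive change in experiment 2 (median 0.39, range 0.11 to 0.72). Over all tested probe sets 51.9% were above 0, but the 10 share subunits and arrays and are not separate observations. The 11 class B J protein probe sets had a median of -0.23 and 0 passed.

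**Figure D4:**
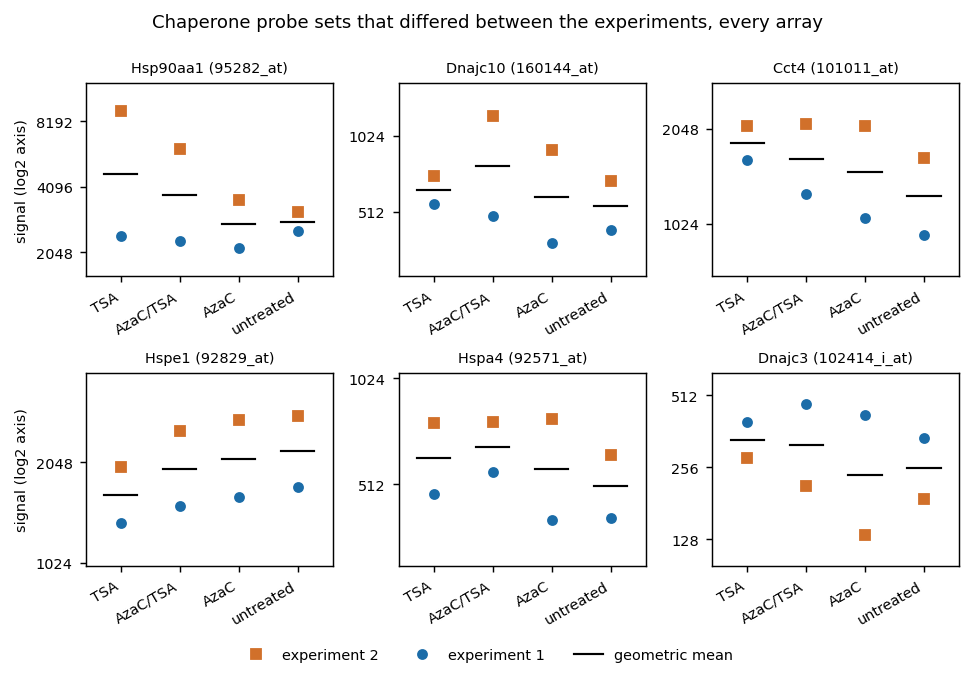
Signal of the 6 chaperone probe sets that differed between the experiments, on a log2 axis for each group, with squares for experiment 2, circles for experiment 1 and a bar at the geometric mean. Squares lie above circles in every group for the 5 that were higher in experiment 2, and below them for Dnajc3.

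Other genes of the pathway came from lists of cochaperones and stress genes. Of 38 heat shock factors and cochaperones, 30 were on the array and 26 were tested, of which 3 rose and 0 fell with TSA exposure (median 0.13), against 6.95% and 7.56% of all tested probe sets. With the block 6 rose and 3 fell, against 11.7% and 12.2%. The heat shock factor genes in the list (Hsf1, Hsf2 and Hsf4) were not among those tested, so these counts do not cover them. Hsbp1, which binds heat shock factor, had signals of 1475 and 1443 with TSA, 1305 and 1465 with AzaC/TSA, 849.1 and 511.8 with AzaC, and 1037 and 738.4 untreated (log2 change 0.90, SE 0.21, limma adjusted p = 0.0235). Cdc37, which brings kinases to Hsp90, rose by 0.72 (adjusted p = 0.0296), and Grpel1, the nucleotide exchange factor of the mitochondrial Hsp70 Hspa9, by 0.93 (adjusted p = 0.0456). Next in order of p were Sugt1 (0.52), the mitochondrial protease subunit Clpp (-0.53) and the mitochondrial protease Lonp1 (-0.61), which passed with the block (adjusted p = 0.0201, 0.0261 and 0.0286) and not without it.

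In the list of the endoplasmic reticulum stress response (26 genes, 22 on the array), 1 of 19 tested genes rose and 1 fell (median -0.23), against 6.95% and 7.56% of all, so the shares lay near or under the background. With the block 2 rose and 1 fell, against 11.7% and 12.2%. Ddit3 (CHOP) rose by 1.04 (SE 0.23, limma adjusted p = 0.0173), and Atf4, its activator in the stress response, fell by 0.83 (adjusted p = 0.0325). Sel1l (0.95) passed only with the block (adjusted p = 0.0298), while Herpud1 (-0.62), Eif2ak3 (0.60) and Xbp1 (-0.59) passed in neither fit. Of the 7 tested chaperone genes of the endoplasmic reticulum 0 passed (1 with the block), and of 5 of mitochondria Hspa9 fell. The genes with the stress element printed above, Hspa5, Hsp90b1 and Dnajc3, were among those that did not pass.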

How the data were processed

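RNA was measured on 8 single-channel oligonucleotide arrays, 2 per group. Each deposited file column holds linear intensity, 1 value per probe set. The authors had scaled every array to the same 2%-trimmed mean (200.1), as the values show; the software was not named in the sources at hand. The 66 control probe sets were left out, intensities were floored at 10% of the trimmed mean (20) and log2-transformed, and probe sets with at least 2 arrays at 25% (50) were tested (7987, 64.3%). The platform annotation gave 1 symbol to 10855 probe sets, several to 396 and none to 1237. All 77 members' gene identifiers matched RefSeq.

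limma 3.58.1 in R 4.3.3 fitted 1 mean per group over all 8 arrays (eBayes with an intensity trend, 4 residual degrees of freedom, prior 4.93), with two-sided tests and Benjamini-Hochberg adjustment over all tested probe sets within a comparison. The experiment difference came from a fit with group and experiment. The titles number the experiments, and deviations from group means correlated by experiment with r of 0.203 to 0.411 over 6 pairs of groups. The experiment is therefore a pairing, used as a block in an alternative. Nothing says that the cultures of an experiment came from separate embryos, so p-values measure the spread between these arrays. The number of arrays limits the precision.

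Members and gene lists were chosen with earlier results of these data known. Named are members past the threshold, textbook members of each family, the 5 largest rises and falls with TSA, and up to 6 genes of each list in order of p. Alternatives changed the scaling, floor, filter, trend, samples in the fit, block, or left out 1 array. Motifs were searched with Python 3.11.15 and sequences aligned with Biopython 1.88.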

Additional observations from a re-analysis of the deposited data

How the results depend on the processing

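No call given for a chaperone gene changed direction under any alternative run. Over the mean of both TSA comparisons, Hspa1b and Dnajc9 passed in all 16 alternatives, Hspa1a in 15, Cct6a in 14, Dnajb6 in 9, Cct3 in 8 (98446_s_at) and 7 (98153_at), Hspa9 in 7 and Hspa4 (96594_at) in 5. The count of 9 members in that comparison became 5 without the filter, 4 without the intensity trend, 14 with the replicate block and 3 to 6 with 1 array left out (3 without untreated 2). In TSA over untreated the count of 3 became 0 without the filter or with only the groups compared, 1 without the trend, 7 with the block and 0 to 2 with 1 array left out. In AzaC/TSA over AzaC the count of 1 became 0 with median centring, without the filter or trend, or with only the groups compared, 5 with the block and 0 to 1 with 1 array left out (0 without any TSA, AzaC/TSA or AzaC array). In AzaC/TSA over untreated the count of 2 became 0 without the filter or with only the groups compared, 6 with the block and 0 to 2 with 1 array left out. For experiment 2 over experiment 1 the count of 6 became 0 without the filter or trend and 0 to 3 with 1 array left out. The counts of 0 for AzaC and the interaction held in all alternatives run. Leaving out an array leaves its group with 1 array of a single experiment, assumed to vary like the others. The cause of these shifts was not tested. Median centring moved the median log2 change of all tested probe sets by -0.15 for AzaC over untreated, by 0.11 for AzaC/TSA over AzaC and by 0.17 for the interaction, and by less than 0.1 elsewhere.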
